A study of Mus musculus with 10 samples.

Results

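Heparan sulfate proteoglycan core proteins are the protein backbones on which cells build heparan sulfate chains, and 10 of their genes were followed through mouse bladder RNA: Sdc1, Sdc2, Sdc3 and Sdc4, which encode the syndecans, Gpc1, Gpc3, Gpc4 and Gpc6, which encode glypicans, and Agrn and Hspg2, which encode agrin and perlecan. The genes were chosen by name, as core proteins of this class, and they are 10 of the 55536 genes counted in each library. The series compared bladders of C57BL/6 wild-type (WT) mice, 4 libraries, with those of OMD-/- mice, 3 libraries, and PRELP-/- mice, 3 libraries. OMD, or osteomodulin, and PRELP, named for its proline- and arginine-rich end, are secreted leucine-rich repeat proteins of the matrix, and the study asked what their loss changes in the bladder. According to the study's methods both alleles are constitutive: the protein-coding sequence was removed in all cells and a β-galactosidase gene was placed under the promoter of the deleted gene, so the knockouts carry a reporter that WT lacks. The labels give homogenised bladder tissue, whereas the paper speaks of isolated epithelia, and age and sex are not stated. The paper also gives other group sizes than the labels, which were followed. Nothing in the labels says whether libraries of a group came from separate animals, so p-values measure only the spread between these libraries.

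Syndecans span the plasma membrane and carry their chains on the outside, where they act as co-receptors for growth factors and as matrix receptors. Glypicans are held to the outer membrane leaflet by a lipid anchor and shape the reach of Wnt, Hedgehog and FGF ligands. Agrin and perlecan are secreted into basement membranes, the thin matrix sheets under epithelium and around muscle and vessels, where agrin binds laminin and perlecan binds laminin, nidogen and collagen IV. PRELP itself is known to bind heparan sulfate and perlecan.

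The genes lie on 7 chromosomes of the GRCm38 assembly (GENCODE vM21 positions). Agrn (chromosome 4, 156165290 to 156197488), Hspg2 (chromosome 4, 137468769 to 137570630) and Sdc3 (chromosome 4, 130792537 to 130826319) share 1 chromosome. Gpc3 (chromosome X, 52272426 to 52613950) and Gpc4 (chromosome X, 52053021 to 52165252) are neighbours, both on the minus strand, with 107173 bases between them. Sdc1 lies on chromosome 12, Sdc2 on 15, Sdc4 on 2, Gpc1 on 1 and Gpc6 on 14. Gpc6 is the longest of the 10 at 1051230 bases, of which 0.611% is exonic. Counts cover merged exons, so a value stands for exonic reads of all isoforms of a gene.

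RefSeq gave a promoter window (GRCm38) for 7 of the 10 genes: Sdc1, Sdc3, Sdc4, Gpc3, Gpc4, Agrn and Hspg2. The upstream bases of 4 are shown because 3 of these genes (Sdc3, Gpc3 and Hspg2) were higher in OMD-/- bladders and Agrn, which sits in the same matrix as perlecan, was not. Capitals mark GC boxes, read as GGGCGG on the printed strand or CCGCCC for the other strand, and overlapping matches were counted.
Sdc3, chr4:130792287-130792536, plus strand: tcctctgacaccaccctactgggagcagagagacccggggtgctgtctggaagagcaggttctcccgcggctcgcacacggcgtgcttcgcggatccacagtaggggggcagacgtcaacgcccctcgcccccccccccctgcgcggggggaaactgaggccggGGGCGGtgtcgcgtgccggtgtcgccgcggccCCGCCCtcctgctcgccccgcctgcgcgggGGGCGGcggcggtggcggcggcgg
Gpc3, chrX:52613975-52614224, minus strand: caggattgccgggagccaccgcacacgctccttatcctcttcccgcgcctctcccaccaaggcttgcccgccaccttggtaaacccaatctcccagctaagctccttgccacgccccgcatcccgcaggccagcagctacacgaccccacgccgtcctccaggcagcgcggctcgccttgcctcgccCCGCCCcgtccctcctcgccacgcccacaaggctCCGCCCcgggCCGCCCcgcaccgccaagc
Agrn, chr4:156197489-156197738, minus strand: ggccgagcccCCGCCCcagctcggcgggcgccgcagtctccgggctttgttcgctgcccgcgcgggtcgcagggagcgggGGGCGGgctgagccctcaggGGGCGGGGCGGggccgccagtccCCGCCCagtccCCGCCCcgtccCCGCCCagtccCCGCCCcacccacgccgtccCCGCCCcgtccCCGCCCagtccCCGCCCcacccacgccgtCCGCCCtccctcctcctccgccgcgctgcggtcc
Hspg2, chr4:137468553-137468768, plus strand: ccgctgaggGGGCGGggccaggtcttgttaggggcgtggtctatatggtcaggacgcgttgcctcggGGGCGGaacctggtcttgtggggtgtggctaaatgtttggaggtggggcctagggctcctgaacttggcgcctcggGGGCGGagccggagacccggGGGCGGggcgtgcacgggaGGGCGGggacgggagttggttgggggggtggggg
The Agrn stretch held 12 GC boxes, that of Hspg2 5, and those of Sdc3 and Gpc3 3 each. All 7 genes had at least 1 GC box in the scanned window, against 32.7% of 32851 RefSeq promoter windows of 250 bases. The windows of the genes were not matched to these and were longer than 250 bases, that of Sdc3 running from 130792287 to 130792586. Those of Sdc4 and Gpc4 held 0 bases before the GENCODE start, and Agrn had windows with 250 and with 0. Neither TATAAA (or TTTATA), found in 12.4% of the windows, nor CACCTG (or CAGGTG), found in 17.2%, occurred in any of the 7. These are letter matches and no binding was measured.

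Total counts ran from 20391437 to 46269079 per library, and transcripts of the uroplakins and Krt20, which mark the bladder's umbrella cells, summed to at least 7759 CPM in each. Levels are given as CPM (read counts scaled to a common library total) after TMM scaling over the 10 libraries. Prelp stood at 213 to 316 CPM in WT and 1.86 to 4.09 CPM in PRELP-/-, and at 782 to 829 CPM in OMD-/-. Omd had 0 counts in every OMD-/- library, but only 0, 1, 8 and 12 counts in WT, so its level is no check of the OMD-/- label. PRELP-/- replicate 1 stood apart from replicates 2 and 3: its counts differed from those of replicate 2 by a chi-square per gene of 294, against 4.23 between replicates 2 and 3, where sampling noise alone gives 1. OMD-/- replicates 2 and 3 were also close, at 3.38, against 32.1 and 28.9 for each with replicate 1. In WT the value was 15.1 between libraries 1 and 2 and 10.8 between 3 and 4, against 36.2 to 65.4 across these pairs. WT libraries 1 and 2 carried 188 and 163 CPM of 4 Y-linked genes, WT libraries 3 and 4 at most 0.0439 CPM. OMD-/- libraries 1, 2 and 3 carried 18.4, 0.811 and 0.733 CPM of these genes, and PRELP-/- libraries 117, 19.0 and 18.7 CPM. In 9 of the 10 core protein genes (all but Agrn) both libraries of 1 WT pair lay above both of the other, as in 59.8% of the 16800 genes tested against WT.

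Per kilobase of exon, the scale on which genes can be compared, the family was led by Sdc1 and Sdc4. Sdc1, the syndecan of epithelia and plasma cells, had 229.8 ± 16.4 CPM per kb in WT (SD, n = 4), and Sdc4, a widely expressed syndecan of focal adhesions, 168 ± 5.05. A wide step separated these from Sdc2 (24.2 ± 4.23), Agrn (22.6 ± 1.21) and Sdc3 (21.6 ± 3.83), whose ranges overlapped. Gpc4 (11.9 ± 2.12), Gpc3 (10.1 ± 3.39), Hspg2 (8.83 ± 1.40), Gpc6 (7.21 ± 1.52) and Gpc1 (6.54 ± 1.41) followed, and no neighbours among these 5 were apart. In OMD-/- the order changed below the first 2 places: Sdc3 came next (38.8 ± 0.839, n = 3), then Sdc2 (34.3 ± 3.08) and Gpc3 (21.8 ± 0.828), each with a range apart from the next, and Agrn (19.7 ± 0.811) came after it. In PRELP-/- the mean levels had the same order as in OMD-/-, but below Sdc4 the ranges of all neighbours overlapped.

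**Figure D1:**
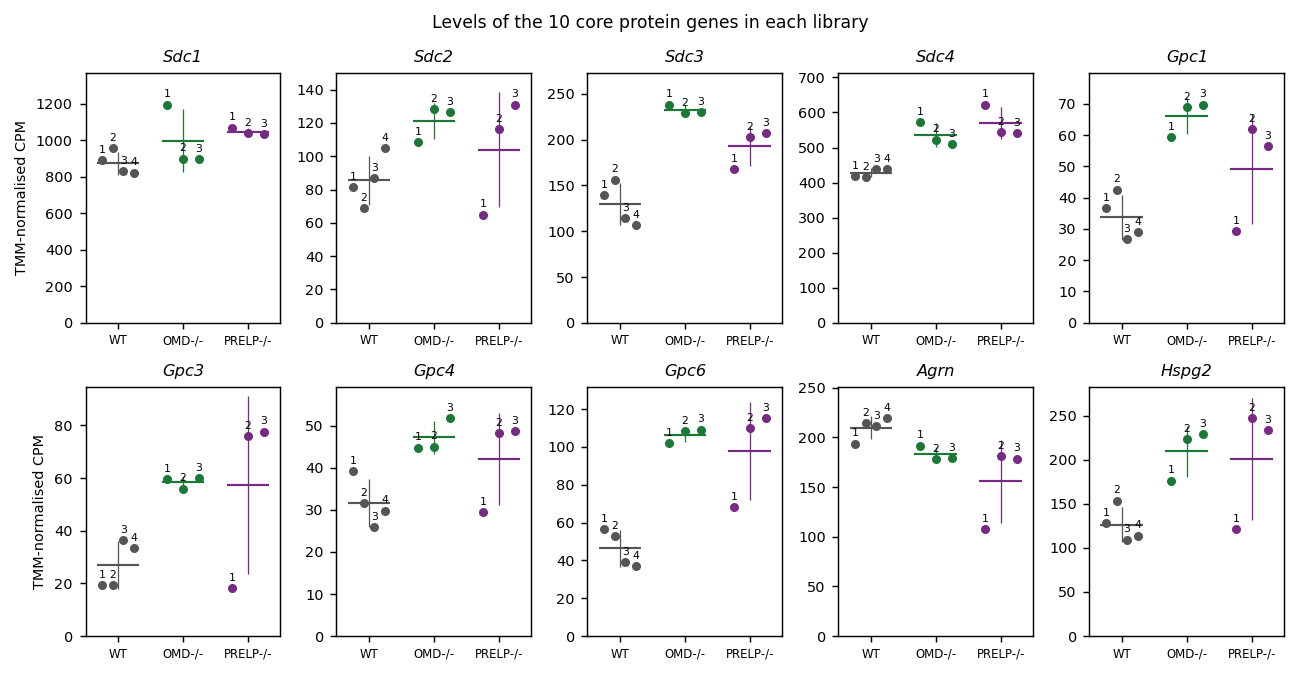
Level of each core protein gene (TMM-normalised CPM, linear axes from 0) in every library, with the replicate number over each point. Horizontal lines are group means and vertical lines 1 SD (n = 4 WT, 3 OMD-/-, 3 PRELP-/-). In PRELP-/- the point for replicate 1 lies near or below the WT points for Gpc1, Gpc3, Gpc4, Hspg2 and Sdc2.

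In OMD-/- bladders, 8 of the 10 core protein genes rose against WT: the 4 glypicans of the 10 (Gpc1, Gpc3, Gpc4, Gpc6), Sdc2, Sdc3 and Sdc4, and perlecan. Sdc1 and Agrn did not pass the test, and none of the 10 was called lower. Gpc2, a further glypican that is listed with the other carriers and not among the 10, was called lower in both knockouts. The test was the quasi-likelihood test of edgeR, adjusted by Benjamini-Hochberg over 16647 genes, of which 29.4% were called and 14.3% were called higher. The median log2 fold change of the 10 was 0.63, against 0.00 over all genes (log2 median -0.0002). All 8 had every OMD-/- library above every WT library, as had 20.5% of all genes. In bulk tissue, more cells of a type and more RNA per cell cannot be told apart.

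Gpc6, a glypican expressed widely in mesenchyme, had the smallest p. Its level was 56.4, 52.9, 39.0 and 36.9 CPM in the 4 WT libraries and 102, 108 and 109 CPM in OMD-/-. The lowest knockout value was well above the highest WT value, a 2.27-fold difference (log2 1.18 ± 0.14 SE, edgeR adjusted p = 0.000226). Gpc3, the glypican that binds Hedgehog and restrains body growth, stood at 19.3, 19.3, 36.5 and 33.3 CPM in WT and 59.7, 56.0 and 60.0 CPM in OMD-/-. WT fell into 2 pairs of libraries, both below the knockouts, and the gene was 2.13-fold higher (log2 1.09 ± 0.23 SE, edgeR adjusted p = 0.00819). Its X-linked neighbour Gpc4 went from 39.3, 31.7, 25.9 and 29.8 CPM to 44.8, 45.1 and 51.9 CPM. The WT pairs of Gpc4 ran opposite to those of Gpc3, with libraries 1 and 2 the higher, and its increase was smaller at 1.47-fold (log2 0.56 ± 0.13 SE, edgeR adjusted p = 0.0091). Gpc1, a co-receptor for FGF2 and other heparin-binding factors, was at 36.6, 42.6, 26.8 and 28.9 CPM in WT and at 59.3, 68.9 and 69.7 CPM in OMD-/-. That was a 1.93-fold rise with no overlap (log2 0.95 ± 0.15 SE, edgeR adjusted p = 0.00114). Of the exonic bases of Gpc1, 18.9% are shared with Ankmy1 on the other strand, a gene averaging 2.68 CPM. The strand setting of the counting is not given in the sources used here, so a few reads of either gene may be in the other's count.

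Among syndecans, the less abundant Sdc3 and Sdc2 had larger fold changes than Sdc4 and Sdc1, a difference between genes that was not tested. Sdc3, best known from nerve and muscle progenitors, had 139.7, 157, 115 and 107 CPM in WT and 238, 229.5 and 229.8 CPM in OMD-/-. The 3 knockout libraries were within 10 CPM of each other, and the level was 1.77-fold that of WT (log2 0.83 ± 0.12 SE, edgeR adjusted p = 0.000627). Sdc2, the syndecan typical of fibroblasts and endothelium, ran from 68.9 to 105 CPM in WT and had 109, 128 and 126 CPM in OMD-/-. Its groups were separated only by the narrow gap between WT library 4 and OMD-/- library 1 (1.40-fold, log2 0.48 ± 0.14 SE, edgeR adjusted p = 0.0225). Sdc4 was the most even gene in WT at 418, 415, 438 and 439 CPM, against 573, 522 and 509.6 CPM in OMD-/-. Its rise was the smallest to pass, 1.23-fold (log2 0.30 ± 0.08 SE, edgeR adjusted p = 0.0164). Sdc1 had 891, 957, 830.0 and 823 CPM in WT and 1196, 900.2 and 897 CPM in OMD-/-. OMD-/- replicate 1 alone lay above all WT libraries, and the difference did not pass the test (log2 0.17, 95% interval -0.08 to 0.41, edgeR adjusted p = 0.28). Sdc1 is also a plasma cell marker, and the other plasma cell genes on the list, Jchain and Mzb1, summed to 5.10 to 14.9 CPM in WT and 31.0 to 145 CPM in OMD-/-; their part in the Sdc1 level was not tested.

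Of the secreted pair only perlecan passed the test. Hspg2, encoding perlecan, was at 128, 154, 109 and 114 CPM in WT and at 176, 224 and 229 CPM in OMD-/-. Every knockout library was higher, a 1.64-fold rise (log2 0.71 ± 0.13 SE, edgeR adjusted p = 0.00278). Agrn, encoding agrin, was at 194, 215, 212 and 219.7 CPM in WT and at 192, 178 and 179 CPM in OMD-/-. All 3 knockout values lay below the lowest WT value, as for 18.5% of all genes, but only just for replicate 1, and the difference missed the threshold (log2 -0.22, 95% interval -0.39 to -0.04, edgeR adjusted p = 0.0589).

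**Figure D2:**
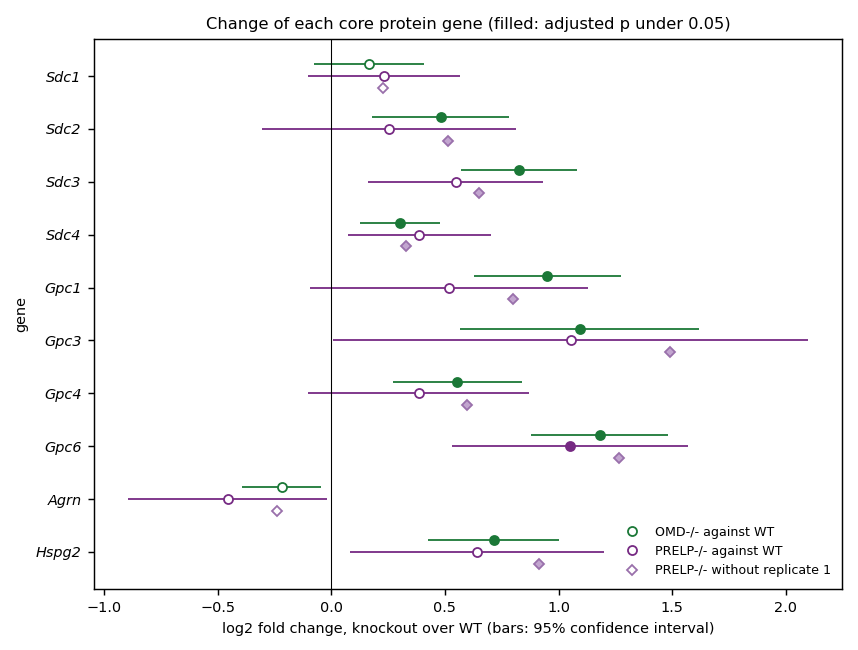
Log2 fold change of each core protein gene, with 95% confidence intervals, in OMD-/- (green) and PRELP-/- (purple) against the same WT libraries; diamonds give the PRELP-/- value without replicate 1 and filled symbols an adjusted p under 0.05. In OMD-/- 8 genes are filled, in PRELP-/- only Gpc6, and without replicate 1 again 8; Agrn is the only gene left of 0.

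The sum of the fibroblast marker list rose as these genes did, but its genes did not move alike. Its 6 genes (Col1a1, Col1a2, Pdgfra, Dcn, Lum, Dpt) summed to 6236 to 7063 CPM in WT and 13607 to 16340 CPM in OMD-/-, with 3 of 6 called higher and 0 lower. Endothelial markers summed to 141 to 308 CPM in WT and 356 to 409.9 CPM in OMD-/- (0 of 5 called by edgeR, 4 at an unadjusted p under 0.05, and 2 by DESeq2), umbrella cell markers, the uroplakins and Krt20, to 7759 to 9401 CPM and 9973 to 13657 CPM (2 of 6 called higher), leukocyte markers to 211 to 256 CPM and 294 to 483 CPM (4 of 5 called higher), and smooth muscle markers to 262 to 1229 CPM and 344 to 778 CPM (0 of 6 called by edgeR or DESeq2, 0 at an unadjusted p under 0.05). Limma-voom called 3 of the 6 smooth muscle genes lower, and 5 of 5 endothelial and 5 of 5 leukocyte genes higher. Over all genes it called 3684 higher and 3528 lower of 16647. Basal urothelium markers summed to 2317 to 3009 CPM in WT and 3104 to 4331 CPM in OMD-/- (1 of 3 tested called higher by edgeR, 2 of 4 by DESeq2). The part of these markers in the core protein levels was not tested. A pair of alternatives left far fewer calls. With all 3 groups in a single fit, Sdc3, Gpc1 and Gpc6 passed (3 of 10), where 2485 of 16912 genes were called. The other summed each close pair as 1 sample: WT 1 with 2, WT 3 with 4, and replicates 2 and 3 of each knockout. Then Sdc3, Gpc1, Gpc6 and Hspg2 passed (4 of 10), where 1658 of 18310 genes were called. With WT libraries 1 and 2 alone as controls, the same 8 genes were called higher, in a fit that called 4421 of 16816 genes. With 3 and 4 alone these 8 were again called higher and Agrn lower (log2 -0.26, edgeR adjusted p = 0.022), in a fit that called 6711 of 16871 genes. The size of a rise moved with the controls. Gpc3 rose by log2 1.59 against libraries 1 and 2 and by 0.72 against 3 and 4, and Gpc1 by 0.73 and 1.22. Libraries within a WT pair were closer to each other than to the other pair, so these controls hold little of the WT spread.

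In PRELP-/- bladders 9 of the 10 log2 fold changes against WT were above 0, but only Gpc6 passed the test, while 6 had an unadjusted p under 0.05 and DESeq2 called 3 (Sdc3, Sdc4 and Gpc6). Limma-voom with quality weights called all 10, 9 higher and Agrn lower, in a fit that called 6963 of 16581 genes. PRELP-/- and OMD-/- were compared with the same 4 WT libraries, so the comparisons are not independent and their values are set side by side only. Gpc6 had 68.3, 110.0 and 115 CPM in PRELP-/-, all above WT, and was 2.07-fold higher (log2 1.05 ± 0.23 SE, edgeR adjusted p = 0.0289). Of 16581 genes tested, edgeR called 7.29%, 1.4% higher and 5.89% lower, and DESeq2 called 928 of 31108 genes higher. The median log2 fold change of the 10 was 0.45, against 0.02 over all genes. Genes with every PRELP-/- library above every WT library were Sdc1, Sdc3, Sdc4 and Gpc6, 4 of 10 against 14.5% of all genes, and Agrn had every library below, against 15.8%.

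Among the genes that missed the threshold, the syndecans Sdc1, Sdc3 and Sdc4 had every PRELP-/- library above every WT library. Sdc4 had 622, 545 and 541 CPM (log2 0.39 ± 0.14 SE, edgeR adjusted p = 0.121) and Sdc3 168, 203 and 207 CPM (log2 0.55 ± 0.17 SE, edgeR adjusted p = 0.0872). Sdc1 had 1069.8, 1040.1 and 1032 CPM, each above the highest WT value of 957 CPM (log2 0.23, 95% interval -0.10 to 0.57, edgeR adjusted p = 0.338). The other genes were split by replicate 1. Gpc3 had 18.3 CPM there, under every WT library, and 76.1 and 77.6 CPM in replicates 2 and 3, over every OMD-/- library (log2 1.05 ± 0.46 SE, edgeR adjusted p = 0.184). Hspg2 had 122 CPM there and 247 and 233 CPM in replicates 2 and 3, Gpc1 29.2 against 62.0 and 56.5 CPM, Gpc4 29.5 against 48.2 and 48.8 CPM, and Sdc2 64.9 against 116 and 131 CPM. In each of these 4 genes replicate 1 lay inside or below the WT range while replicates 2 and 3 lay above it. Agrn was likewise lowest in replicate 1, at 108 CPM, with 181 and 179 CPM in replicates 2 and 3 (log2 -0.46 ± 0.19 SE, edgeR adjusted p = 0.173).

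Leaving out replicate 1 of PRELP-/- brought the count from 1 to 8 of 10: Sdc2, Sdc3, Sdc4, Gpc1, Gpc3, Gpc4, Gpc6 and Hspg2, all higher, in a fit that called 22.2% of genes, 10.7% higher. Their log2 fold changes then ran from 0.33 (Sdc4) to 1.49 (Gpc3, edgeR adjusted p = 0.00583). Leaving out WT replicate 2, 3 or 4 or PRELP-/- replicate 2 or 3 instead left 0 called. Fibroblast markers summed to 8071 CPM in replicate 1 and to 15344 and 15013 CPM in replicates 2 and 3. In PRELP-/- the group means were 4990 CPM for Col1a1, 5154 CPM for Col1a2 and 2352 CPM for Dcn, all above the WT means. Those of Lum (70.8 CPM) and Dpt (6.58 CPM) were below the WT means of 91.6 and 17.4 CPM. Umbrella cell markers ran from 11440 to 19406 CPM over the group, the highest in replicate 1. In PRELP-/- edgeR called 2 of 6 fibroblast and 1 of 6 umbrella cell genes higher. DESeq2 called 2 fibroblast genes higher and 1 lower, and 4 umbrella cell genes higher. Smooth muscle markers summed to 195 to 224 CPM in PRELP-/-, below the 262 to 1229 CPM of WT (0 of 6 called by edgeR, 5 at an unadjusted p under 0.05, and 3 lower by DESeq2). Basal urothelium markers summed to 3540 to 4662 CPM against 2317 to 3009 CPM in WT (0 of 4 called by edgeR, 3 at an unadjusted p under 0.05, and 3 higher by DESeq2). The part of these marker lists in the core protein levels was not tested. The count of core protein genes called also went to 0 with only WT libraries 1 and 2, or only 3 and 4, as controls.

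Compared directly, PRELP-/- and OMD-/- bladders gave no core protein gene past the threshold, and the shared WT libraries do not enter this comparison. Of 15805 genes edgeR called 1 (Prelp, 0.00633%), and 713 had an unadjusted p under 0.05, none of them among the 10, of which DESeq2 and limma-voom also called 0. Intervals show how much could be missed: the log2 difference, PRELP-/- minus OMD-/-, was -0.27 for Sdc3 (95% interval -0.59 to 0.06), 0.10 for Sdc4 (-0.26 to 0.46) and -0.03 for Gpc3 (-1.17 to 1.12). Only Sdc3 had groups that did not overlap, with every PRELP-/- library below every OMD-/- library, as had 8.75% of all genes, and none had every library above, as had 6.1%. With same-numbered libraries as a block, 43 genes and again 0 of the 10 were called. Without PRELP-/- replicate 1 the difference for Gpc3 was 0.39 (edgeR adjusted p = 0.128).

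The ratio of agrin to perlecan was read within each library, so it does not depend on the scaling between libraries. Agrn over Hspg2, per kb of exon, was 2.33, 2.15, 2.98 and 2.97 in WT, 1.68, 1.23 and 1.21 in OMD-/- and 1.37, 1.13 and 1.18 in PRELP-/-. All 6 knockout libraries, replicate 1 included, lay below all 4 WT libraries. Agrn held 72.0 ± 3.40% of the summed level of the pair in WT (SD, n = 4), 57.5 ± 4.47% in OMD-/- and 55.0 ± 2.45% in PRELP-/- (n = 3 each). The ratio was chosen after the values were seen, and no test was run on it.

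The 4 glypicans of the 10, without Gpc2, summed to 35.8 ± 1.45 CPM per kb in WT, 69.0 ± 3.03 in OMD-/- and 62.0 ± 24.04 in PRELP-/-. The WT sum was even although its parts were not: Gpc3 gave from 18.9% to 39.2% of it. In OMD-/- the shares were Gpc3 31.6 ± 1.55%, Gpc4 25.8 ± 1.08%, Gpc6 24.05 ± 0.677% and Gpc1 18.5 ± 1.18%. PRELP-/- replicate 1 summed to 34.2 CPM per kb, just under the lowest WT sum of 34.6, and replicates 2 and 3 to 75.6 and 76.2. The 4 syndecans summed to 443 ± 11.8 CPM per kb in WT, 545 ± 55.9 in OMD-/- and 560.3 ± 9.89 in PRELP-/-, and here replicate 1 was the highest of its group at 572. Sdc1 and Sdc4 together made up most of the syndecan sum in every group, with Sdc1 at 51.8% in WT, 47.8% in OMD-/- and 49.1% in PRELP-/-.

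**Figure D3:**
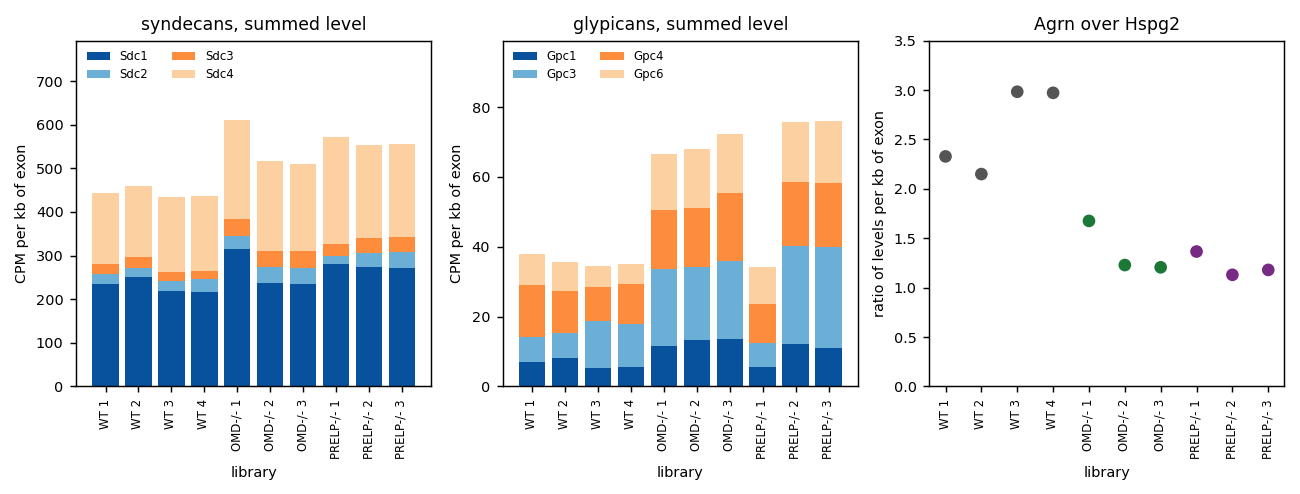
Summed level of the 4 syndecans (left) and 4 glypicans (middle), in CPM per kb of exon and stacked by gene, and the ratio of Agrn to Hspg2 (right), for each of the 10 libraries. Glypican sums are 34.6 to 37.8 in WT and 66.5 to 76.2 in knockout libraries except PRELP-/- replicate 1 (34.2), while the ratio is at or above 2.15 in WT and at or below 1.68 in every knockout library.

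Gpc6, which had the smallest adjusted p of the 10 in both comparisons with WT, was used to look for genes of like pattern. Over the 10 libraries and 14431 genes, the closest by Pearson correlation of log2 CPM were Col1a1 (r = 0.995), Sec31a (0.994), Ythdf2 (0.994), Susd2 (0.993) and Aldh2 (0.991). Col1a1 encodes type I collagen of fibroblasts and Sec31a a coat subunit of vesicles leaving the endoplasmic reticulum. Among the core proteins Sdc3 (0.966), Hspg2 (0.918), Gpc4 (0.906) and Gpc1 (0.904) were nearest, Gpc3 (0.704), Sdc4 (0.698), Sdc2 (0.628) and Sdc1 (0.605) further off, and Agrn was opposed (-0.32). The libraries belong to groups and differ in sequencing depth, so these values describe the 10 libraries and carry no p.

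The enzymes that build and edit the chains were read from 33 listed genes for linker synthesis, polymerisation, modification and extracellular editing. Of 28 tested in OMD-/- against WT, edgeR called 8 higher and 0 lower, where it called 29.4% of all genes and 14.3% higher, and the median log2 fold change was 0.13. DESeq2 called 9 of 31 higher and 1 lower, beside 2656 higher and 2592 lower of 31195 genes. For limma-voom it was 9 of 28 higher and 3 lower, beside 3684 and 3528 of 16647 genes. In PRELP-/- edgeR called 0 of 28 (5 at an unadjusted p under 0.05). There DESeq2 called 1 of 31 higher and 1 lower, beside 928 higher and 1614 lower of 31108 genes. For limma-voom it was 12 of 28 higher and 3 lower, beside 3389 and 3574 of 16581 genes. Without replicate 1 edgeR called 5 higher and 1 lower, where it called 22.2% of all genes. Xylt1, which starts the chain by adding xylose to the core protein, rose by log2 0.96 ± 0.28 SE (edgeR adjusted p = 0.0302), though its groups overlapped. Of the 5 exostosin family genes, Ext2 went from 79.1 ± 8.85 CPM in WT to 122 ± 4.57 CPM in OMD-/- (log2 0.61 ± 0.09 SE, edgeR adjusted p = 0.000796). Extl2 (log2 0.48) and Extl3 (log2 0.47) also rose. Ext1, the partner of Ext2 in the polymerase, was at 57.7 ± 1.62 and 61.4 ± 2.78 CPM (log2 0.07, edgeR adjusted p = 0.515), and Extl1 had a log2 fold change of 0.14 (edgeR adjusted p = 0.269). Among 11 tested modification genes only Hs2st1, which sulfates uronic acid, rose (log2 0.41 ± 0.08 SE, edgeR adjusted p = 0.00442).

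Of 5 genes listed for enzymes that act on finished chains or anchors, edgeR called 3 higher in OMD-/-, where 14.3% of all genes were called higher. Hpse, the heparanase that cuts heparan sulfate, ran from 16.8 to 22.9 CPM in WT and from 35.0 to 43.8 CPM in OMD-/- (log2 1.02 ± 0.14 SE, edgeR adjusted p = 0.00043). Sulf2, which removes sulfate from chains outside the cell, went from 276 ± 23.4 to 428 ± 8.15 CPM (log2 0.61 ± 0.08 SE, edgeR adjusted p = 0.000569). Notum, a secreted hydrolase first described as an enzyme that releases glypicans and now known to inactivate Wnt, rose by log2 0.87 ± 0.20 SE (edgeR adjusted p = 0.00962), and 29.4% of its exonic bases overlap its antisense gene. Sulf1 (log2 0.18) and Hpse2 (log2 -1.81) did not pass by edgeR, whereas DESeq2 and limma-voom each called Hpse2 lower.

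**Figure D4:**
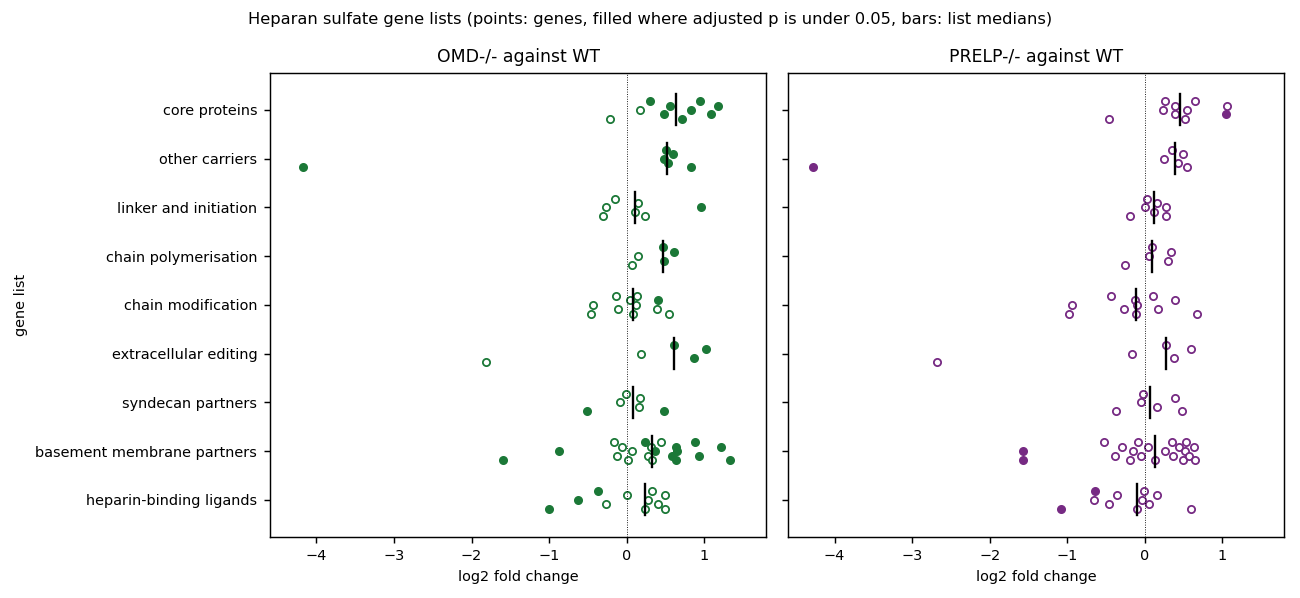
Log2 fold change of every tested gene in 9 heparan sulfate gene lists, OMD-/- (left) and PRELP-/- (right) against WT; filled points have an adjusted p under 0.05 and black bars are list medians. The core protein median is 0.63 in OMD-/- and 0.45 in PRELP-/-, and the point far to the left among other carriers is Gpc2.

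Other proteins that can carry heparan sulfate were mostly higher in OMD-/-, and Gpc2 was lower in both knockouts. Of 7 listed, 6 were tested, and in OMD-/- Col18a1 (log2 0.48), Cd44 (log2 0.51), Tgfbr3 (log2 0.59), Nrp1 (log2 0.83) and Srgn (log2 0.53) rose, with edgeR adjusted p from 0.0014 to 0.016. Over all genes 14.3% were called higher there. These 5 genes encode collagen XVIII, the hyaluronan receptor, betaglycan, neuropilin-1 and serglycin. In PRELP-/- edgeR called 0 of these 5. DESeq2 called 1 higher, beside 928 of 31108 genes, and limma-voom 4 higher, beside 3389 of 16581 genes. Without replicate 1 edgeR called 4 of the list higher and 1 lower, where 22.2% of all genes were called. Gpc2, a glypican of developing nerve, had 207, 96, 66 and 69 counts in WT, 2, 6 and 5 in OMD-/- and 0, 6 and 6 in PRELP-/-. Every knockout library was far below WT (log2 -4.17 ± 0.37 SE, edgeR adjusted p = 3.48e-05 in OMD-/-; log2 -4.27 ± 0.54 SE, edgeR adjusted p = 0.00326 in PRELP-/-). Of its exonic bases 55.6% are shared with Gm43720 on the same strand, a gene to which almost no reads were assigned, so its count is uncertain.

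The basement membrane partners of agrin and perlecan moved in both directions in OMD-/-: 10 of 21 rose and 2 fell, where 14.3% of all genes were called higher and 15.1% lower. Col4a1 and Col4a2, the collagen IV chains of most basement membranes, went from 285 ± 32.4 to 727 ± 57.7 CPM (log2 1.33 ± 0.10 SE, edgeR adjusted p = 1.81e-05) and by log2 1.22. Lamc1, Nid1 and Lamb2, encoding laminin chains and nidogen, rose by log2 0.94, 0.88 and 0.59. Lama5, the laminin chain of epithelial basement membranes, was at 359 to 432 CPM in WT, 117 to 144 CPM in OMD-/- and 102 to 155 CPM in PRELP-/-. No knockout library reached the WT range, and Lama5 fell in both (log2 -1.60 ± 0.11 SE, edgeR adjusted p = 5.51e-06; log2 -1.57 ± 0.18 SE, edgeR adjusted p = 0.00212). In PRELP-/- 2 of 21 were called, Lama5 and Lama1, both lower, where 5.89% of all genes were called lower and 1.4% higher. Without replicate 1 edgeR called 11 higher and 2 lower, where 10.7% of all genes were called higher. Lama1, named here because it completes that count, had a log2 fold change of -0.88 in OMD-/- (edgeR adjusted p = 0.00354) and -1.58 in PRELP-/- (edgeR adjusted p = 0.00284).

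Among 11 tested heparin-binding ligands edgeR called 3 lower in OMD-/-, where 15.1% of all genes were called lower, and 2 lower in PRELP-/-, beside 5.89%. It called 0 higher in either knockout, whereas DESeq2 called 1 and limma-voom 4 in OMD-/-, and limma-voom 2 in PRELP-/-. Over all genes DESeq2 called 2656 of 31195 higher in OMD-/-. There limma-voom called 3684 of 16647 higher, and in PRELP-/- 3389 of 16581. At an unadjusted p under 0.05 by edgeR, in either direction, there were 7 ligands in OMD-/- and 5 in PRELP-/-. Vegfa, the main angiogenic factor, went from 78.6 ± 7.37 CPM in WT to 40.0 ± 1.29 in OMD-/- and 37.9 ± 2.25 in PRELP-/- (log2 -0.995, edgeR adjusted p = 4.06e-05; log2 -1.08, edgeR adjusted p = 0.00292). Pdgfa fell in both (log2 -0.63, edgeR adjusted p = 0.00197; log2 -0.65, edgeR adjusted p = 0.0196), with 26.1% of its exonic bases shared with an antisense gene, and Fgf1 fell in OMD-/- (log2 -0.37, edgeR adjusted p = 0.00926). Of 6 genes for proteins that bind syndecan tails, Prkca rose in OMD-/- (log2 0.48, edgeR adjusted p = 0.0499) and Sdcbp2 fell (log2 -0.51, edgeR adjusted p = 0.0241), 2 of 6 where 29.4% of all genes were called. In PRELP-/- 0 of 6 were called by edgeR or DESeq2, with 0 at an unadjusted p under 0.05. There limma-voom called 2 of 6 higher and 1 lower, beside 3389 higher and 3574 lower of 16581 genes.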

How the data were processed

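Poly(A) RNA of mouse bladder, 10 samples (4 WT, 3 OMD-/-, 3 PRELP-/-) was made into strand-marking libraries by the authors and deposited as raw read counts per gene, one integer for each of 55536 Ensembl genes, not normalised. The headers of the deposited counts name HISAT2, whereas the submitters' processing notes name STAR 2.5.2b and featureCounts, with GRCm38 and hg38 as builds; strand setting and use of the molecular identifiers in the adaptors are not given in the sources used here. The deposited DESeq2 comparison tables (base means, fold changes, p-values) were not used. All 55536 identifiers matched GENCODE vM21, the source of symbols, positions and exonic lengths.

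Genes passing filterByExpr were tested over all genes with edgeR 4.0.16 (R 4.3.3), quasi-likelihood with robust dispersion, TMM factors, 2-sided, Benjamini-Hochberg threshold 0.05, on each pair of groups alone. Levels are CPM over TMM-scaled totals of all 10 libraries, and log2 CPM used a prior count of 2. Library depth, 20391437 to 46269079, puts 3 counts at 0.0596 to 0.166 CPM, counting error only. Alternatives were DESeq2 1.42.0, limma 3.58.1 voom with quality weights, other normalizations, no filter, a Y-gene covariate, summed close pairs, a replicate block and leaving out each library. The fit was tested on simulated data. Deviations of same-numbered OMD-/- and PRELP-/- libraries correlated at 0.38, 0.27 and 0.24, all over 0.1. OMD-/- replicate 2 with PRELP-/- replicate 3 (0.31) and OMD-/- replicate 3 with PRELP-/- replicate 2 (0.26) correlated as well, so the numbers set replicate 1 apart from replicates 2 and 3 and did not tell 2 from 3. The main tests, that of PRELP-/- against OMD-/- included, were unpaired. A block by these numbers, from the sample titles, was an alternative only. It was also fitted against WT, whose numbers did not pair with either knockout. The labels spell the PRELP-/- genotype PRLEP-/-, while the titles read PRELP.

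The 10 genes and all lists were chosen with earlier results of these data known. Genes named were all 10, Omd and Prelp, up to 6 called genes of each other list by adjusted p, every exostosin gene, and the 5 genes closest in pattern to the core protein gene with the smallest adjusted p. The controls restricted to WT libraries 1 and 2 or 3 and 4 were added after seeing the data. Matplotlib 3.10.9 drew the plots.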

Additional observations from a re-analysis of the deposited data

Results flagged for a closer look

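Prelp differed between the knockouts, PRELP-/- minus OMD-/-, by log2 -8.24 (edgeR adjusted p = 0.00224), the only gene that passed in their direct comparison by edgeR, where 713 had an unadjusted p under 0.05 and DESeq2 called 87; levels were 1.86 to 4.09 CPM in PRELP-/- and 782 to 829 CPM in OMD-/-. Among 39 named genes no WT library stood beyond Dixon's 95% limit for 4 samples, and groups of 3 were not looked at for such libraries.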

How the results depend on the processing

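In OMD-/- against WT, 161 of 180 re-estimates of the 10 genes kept direction and side of the threshold, 5 newly passed (Agrn), 14 no longer passed, and none reversed. The count of core protein genes called, 8, went to 3 with one fit over all groups and to 4 with close pairs summed, and ran from 6 to 9 when a library was left out; all genes called, 4899, went to 2485 and 1658, and ran from 2951 (without OMD-/- replicate 3; 3128 without replicate 2) to 4850. In PRELP-/- against WT, 150 of 180 kept both, 20 newly passed and 10, all for Gpc6, no longer passed. The count called, 1, went to 3 (DESeq2), 10 (voom), 3 (one fit), and 0 with the replicate block, the Y-gene covariate, summed pairs and either pair of WT libraries as controls, and ran from 0 to 8 with a library left out. All genes called, 1209, went to 2542 (DESeq2), 6963 (voom), 2485 (one fit), 115 (replicate block), 13 (summed pairs), 119 (WT libraries 1 and 2) and 453 (3 and 4), and lay between 475, where PRELP-/- replicate 2 was omitted, and 3807, where replicate 1 was, each of the 7 omissions moving it over 1.5 times; the causes were not tested. In PRELP-/- against OMD-/-, 0 of the 10 were called in every alternative; all genes called, 1, went to 5 (no filter), 87 (DESeq2), 1010 (voom), 3 (one fit), 43 (replicate block), 4 (Y-gene covariate) and 0 (summed pairs), and ran from 1 to 36. There 132 of 150 kept their direction and 18, none past the threshold, reversed. Under voom these were Gpc3 0.38, Gpc4 0.0026, Gpc6 0.0465 and Hspg2 0.11 (log2). With the Y-gene covariate they were Sdc1 -0.17, Sdc2 0.27, Sdc4 -0.0777, Gpc1 0.0916, Gpc3 0.53, Gpc4 0.19, Gpc6 0.22 and Hspg2 0.53. With a library left out the lowest and highest values were -0.41 and 0.0225 for Sdc2, -0.30 and 0.39 for Gpc3, -0.27 and 0.0326 for Gpc4, -0.25 and 0.0746 for Gpc6 and -0.23 and 0.19 for Hspg2, above 0 without PRELP-/- replicate 1 and, for Hspg2 (0.0163), without OMD-/- replicate 3. Replicate numbers did not pair the WT libraries with either knockout (correlations of deviations 0.0054, -0.045 and 0.0082 with OMD-/-, -0.12, 0.19 and -0.15 with PRELP-/-); with the replicate block 3516 genes and 7 of the 10 were called in OMD-/-, where Sdc4 was lost. The lowest count of the 10 genes in any library was 332.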
